A study of Homo sapiens with 6 samples.

Results

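The miR-199 and miR-214 group comprises the 6 mature arms of miR-199a, miR-199b and miR-214, which were chosen by name from the 2576 mature miRNAs listed for these libraries (hsa-miR-199a-5p, hsa-miR-199a-3p, hsa-miR-199b-5p, hsa-miR-199b-3p, hsa-miR-214-3p and hsa-miR-214-5p). Small RNA was sequenced from intact MIO-M1 cultures, a line of human Müller glia that carries the genotype label WT, and from the EV that this line secreted into culture medium. Whole cell replicates 1, 2 and 3 were of passage 22, 24 and 26, and for EV replicates 1, 2 and 3 the passage was 23, 25 and 27. All samples come from 1 cell line grown in medium with serum, so the p-values measure the spread between passages of that line. For the collection of EV, serum-free or vesicle-depleted medium was then applied. The comparison asks which miRNAs are carried at another relative level in EV than in whole cells of this line. The EV did not come from the passages of the whole cell libraries. The study's methods name different RNA isolation kits for cells and EV, and describe the vesicle-depleted medium only for EV collection. Fraction, medium and isolation therefore cannot be told apart. Of the 6 arms, 4 had at least 1 count in any library, and only miR-199a-3p and miR-199b-3p reached the abundance needed for a test.

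A miRNA hairpin is cut into a 5p and a 3p arm, and a mature arm loaded into Argonaute finds its target mRNAs mainly through its seed, bases 2 to 8. The miR-199a-2 and miR-214 hairpins lie on the long non-coding RNA DNM3OS, which is transcribed from the strand opposite to the dynamin gene DNM3. The group is best known from mesenchyme, skeletal development and fibrosis, where it is high in fibroblasts and other mesenchymal cells.

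The mature sequences, credited to RefSeq on GRCh38.p14, were found for 5 of the 6 arms and are shown because they decide which counts can be told apart. Capitals mark the seed, and each sequence runs 5′ to 3′.
miR-199a-3p: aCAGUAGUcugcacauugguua
miR-199b-3p: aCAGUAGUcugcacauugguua
miR-199a-5p: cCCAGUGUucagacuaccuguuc
miR-214-3p: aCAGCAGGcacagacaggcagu
miR-214-5p: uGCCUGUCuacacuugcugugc
miR-3129-5p: gCAGUAGUguagagauugguuu
The 3p arms of miR-199a and miR-199b are the same 22 bases, so a read of this product cannot be given to either name by its sequence. miR-3129-5p is no member and is shown because it shares the miR-199-3p seed. Counted from 1 at the 5′ end, the seed of miR-214-3p differs from that of miR-199-3p by U5C and U8G.

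The shared 3p product is encoded in 3 hairpins, all of which lie on the minus strand within a dynamin gene that is transcribed from the plus strand. MIR199A1 lies at chr19:10817426-10817496 in introns of all 7 DNM2 transcripts that span it in GENCODE 29, and MIR199B at chr9:128244721-128244830 in introns of all 14 such DNM1 transcripts. MIR199A2 lies at chr1:172144535-172144644 and MIR214 at chr1:172138798-172138907, both in introns of DNM3. On DNM3OS itself, MIR214 lay in the last exon of the 1 transcript that spans it. MIR199A2 lay in an intron of 1 of the 2 spanning transcripts and partly in an exon of the other. The hairpins are 5627 bases apart on the 6444 bases of DNM3OS, as drawn on the map of its transcripts. The deposited tables place miR-199a at 2 loci and miR-199b at 1, with positions on a build that their header does not name.

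**Figure D1:**
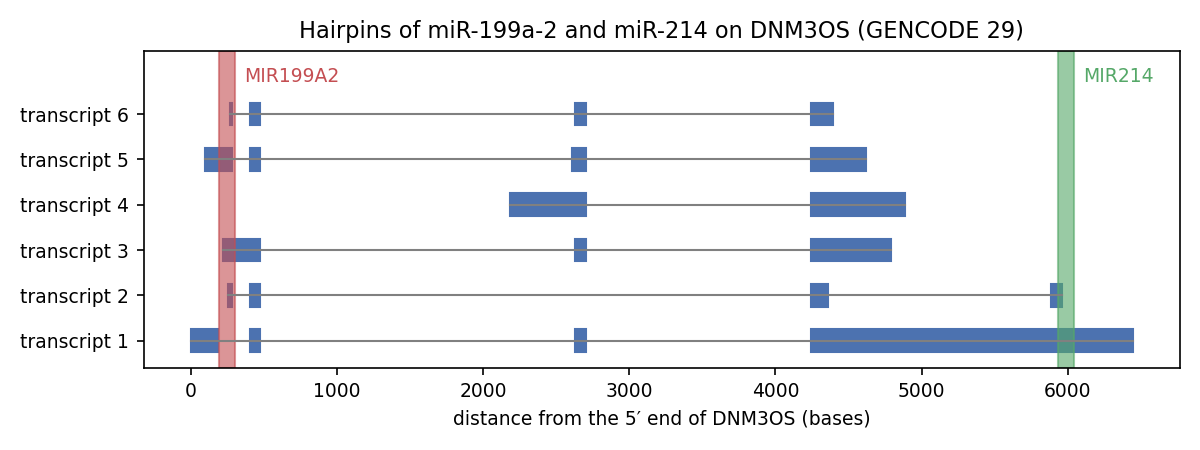
The x axis gives the distance in bases from the 5′ end of DNM3OS, and each row is a GENCODE 29 transcript with exons as blue boxes and introns as lines. MIR199A2 (red band) starts 196 bases and MIR214 (green band) 5933 bases from that end.

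The total count was 396025 to 3990900 in whole cells and 1225541 to 3134561 in EV. Where no read was counted, up to 3 counts were allowed for, which is between 0.752 and 7.58 CPM (counts scaled to a library total of 1e6) in whole cells and between 0.957 and 2.45 CPM in EV. Intervals and limits given here cover counting error only. Some counts differed between EV libraries by more than that, as given below for miR-199b-5p. Between 1 and 9 counts were found for 298 to 541 miRNAs in whole cell libraries and for 25 to 44 miRNAs in EV libraries, so that low counts were rarer in EV. Of a list of 9 miRNAs known from Müller glia, all 9 were counted in every library, with a summed level of 364460 to 404568 CPM in whole cells and 305789 to 359565 CPM in EV.

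miR-199-3p, the arm with identical sequence from all 3 miR-199 hairpins and a known repressor of MTOR and MET, had a mean level in EV 8.19 times that in whole cells. With both names added, it had 15, 134 and 48 counts in whole cell replicates 1, 2 and 3, which is 37.9, 33.6 and 38.3 CPM. It had 439, 381 and 1109 counts in EV replicates 1, 2 and 3, which is 358, 187 and 354 CPM. The whole cell libraries lay close together despite a difference in depth, EV replicate 2 was the lowest of the EV libraries, and the groups did not overlap. The mean was 36.6 ± 2.62 CPM (SD, n = 3) in whole cells and 299.6 ± 97.7 CPM (SD, n = 3) in EV. The lowest EV library was 4.88 times the highest whole cell library. By a two-sided exact permutation test p was 0.1, which is the lowest value possible with 3 libraries in each group. A lack of overlap with EV on the higher side was found for 20.9% of the 430 tested miRNAs, by CPM scaled with TMM factors (a normalisation between libraries). Shares in bulk libraries do not show whether more vesicles carried the product or more copies were held in each vesicle, and they sum to the whole of a library.

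Ranked by count among the miRNAs detected in a library, miR-199-3p stood at 42.7% of 585, 23.1% of 1057 and 28.4% of 810 miRNAs from the top in whole cell replicates 1, 2 and 3. In EV it stood at 25.1% of 430, 39.7% of 426 and 30.8% of 328. These percentages overlapped between the groups, and they depend on the number of detected miRNAs, which was lower in EV. Counted from the top, miR-199-3p ranked 230 or further down in every whole cell library and 169 or higher up in every EV library. The share of all miRNAs whose ranks lay apart in this way was not computed. By TMM-scaled CPM, 20.9% of the 430 tested miRNAs had every EV library above every whole cell library. The 15 counts of whole cell replicate 1 were the thinnest evidence, with a 95% Clopper-Pearson interval of 21.2 to 62.5 CPM. That interval did not reach the interval of the lowest EV library, replicate 2, at 169 to 207 CPM.

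**Figure D2:**
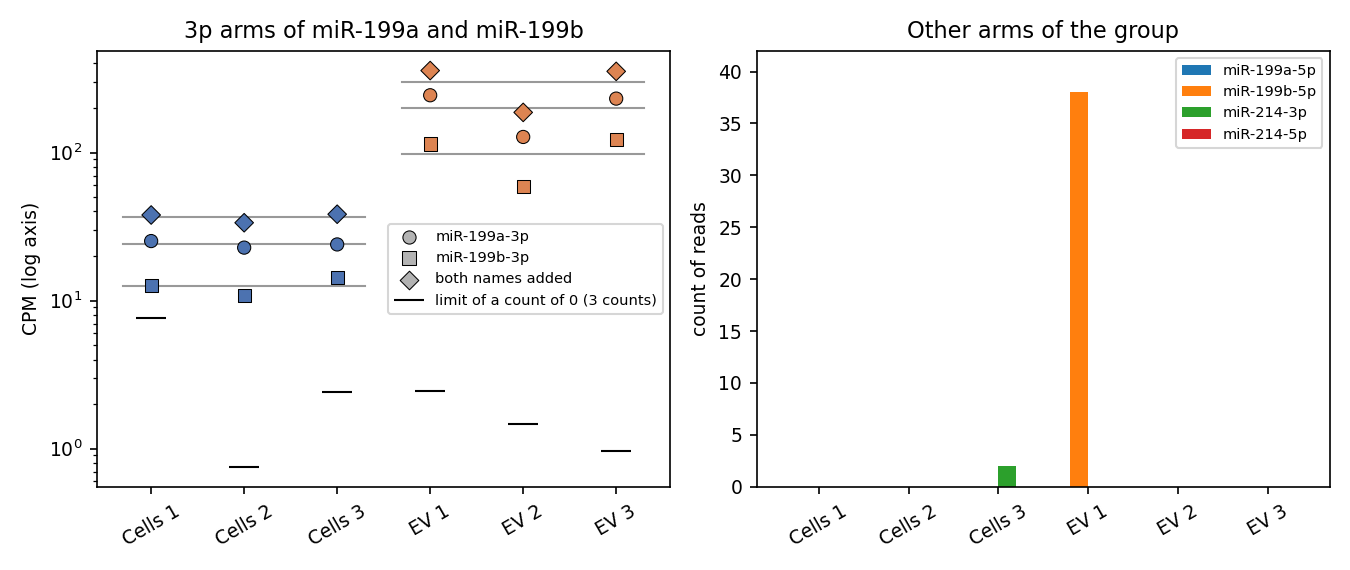
Left, the level of miR-199a-3p, miR-199b-3p and their sum in each library in CPM on a log axis, with grey lines for group means and black dashes for the level that 3 counts would give. Every EV point (orange) of a name lies above every whole cell point (blue) of that name. Right, the read counts of the other arms on a linear axis, where the bars above 0 are 38 counts of miR-199b-5p in EV replicate 1 and 2 counts of miR-214-3p in whole cell replicate 3.

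The counts under each name gave the same picture. miR-199a-3p had 10, 91 and 30 counts in whole cells and 299, 260 and 726 in EV. Its mean level was 24.0 ± 1.23 CPM (SD, n = 3) in whole cells and 201.04 ± 64.0 CPM (SD, n = 3) in EV. miR-199b-3p had 5, 43 and 18 counts in whole cells and 140, 121 and 383 in EV. Its mean level was 12.6 ± 1.80 CPM (SD, n = 3) in whole cells and 98.6 ± 34.2 CPM (SD, n = 3) in EV. Both names had every EV library above every whole cell library, but since they share 1 product they are not 2 independent measurements.

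Counts were then tested with edgeR's quasi-likelihood test over all 430 miRNAs that reached 5 CPM in at least 3 libraries, with Benjamini-Hochberg adjustment. miRNAs were called where the adjusted p was below 0.01 and the size of the log2 fold change reached 2.5. These limits were passed by 5.81% of the tested miRNAs, 4.42% as higher and 1.4% as lower in EV. With both names added, the log2 fold change of miR-199-3p in EV against whole cells was 3.08 (standard error 0.63, adjusted p = 0.0114 by edgeR), just outside the limit on p. It was the 50th highest of 429 fold changes. miR-199a-3p alone differed by 3.11 on the log2 scale (standard error 0.72, adjusted p = 0.0160 by edgeR) and miR-199b-3p alone by 3.01 (standard error 0.93, adjusted p = 0.0467 by edgeR). Neither name was called at 0.01. At the limit of 0.05 that the study's methods give, both names passed with a log2 fold change over 2.5. miR-199b-3p lost this call with RLE factors (adjusted p = 0.0635 by edgeR), library totals (0.0502), upper-quartile factors (0.0622), no filter (0.0993) and libraries thinned to the smallest one (0.0943), while miR-199a-3p and the sum kept it under these 5 settings. With TMM factors and the filter, the limits of 0.05 and 2.5 were passed by 11.9% of the tested miRNAs in this direction, 9.77% in the other and 21.6% in all.

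DESeq2's Wald test, the tool named in the methods, called both names at the stricter limit, where it called 16.7% of the miRNAs, 9.77% as higher and 6.98% as lower in EV. Its adjusted p was 6.67e-05 for miR-199a-3p, 0.00276 for miR-199b-3p and 1.41e-05 for the sum. With edgeR and 1 library left out, the log2 fold change of the sum stayed between 2.68 and 3.31, and 4 of the 6 fits passed the 0.05 limit. Those without whole cell replicate 2 (adjusted p = 0.1001 by edgeR) and without whole cell replicate 3 (adjusted p = 0.0766 by edgeR) did not. miR-199a-3p passed in 4 of 6 fits and miR-199b-3p in 1 of 6, the one without EV replicate 2. The size of the difference was thus steadier than its call.

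**Figure D3:**
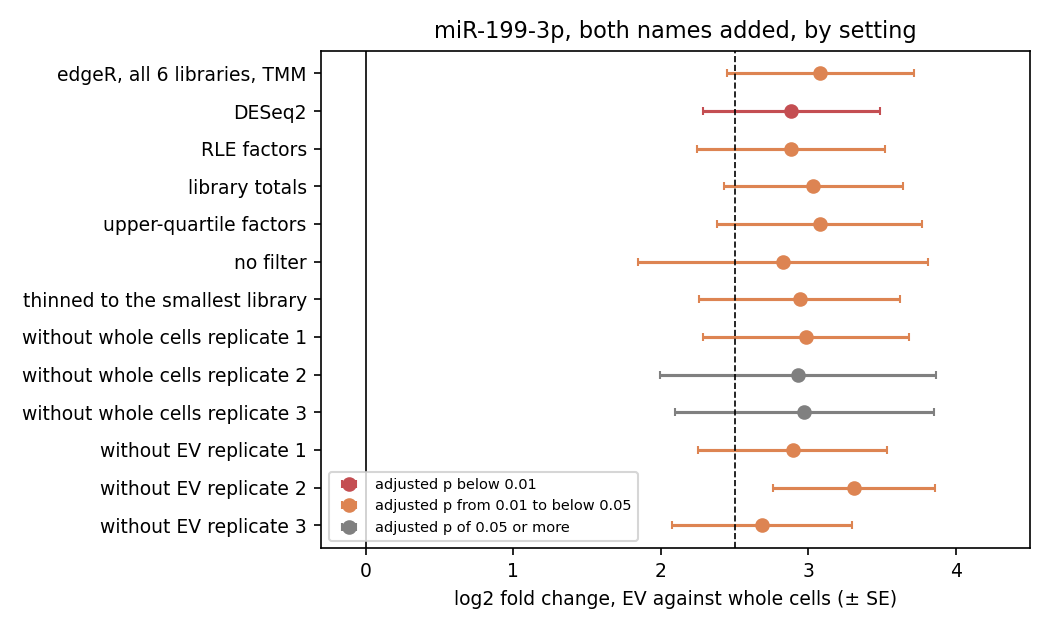
The x axis gives the log2 fold change of miR-199-3p in EV against whole cells with its standard error, and each row is a tool, normalisation, filter, depth or set of libraries. All points lie between 2.68 and 3.31, to the right of the dashed line at 2.5, while the colours show that the adjusted p was below 0.01 only with DESeq2. The fit with the replicate number as a block is not drawn. It gave 2.98 (adjusted p = 0.0583 by edgeR).

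The division of the shared product between its names was nearly constant. Of the counts of miR-199-3p, the miR-199a name held 66.7% in whole cell replicate 1, 67.9% in replicate 2 and 62.5% in replicate 3. In EV it held 68.1%, 68.2% and 65.5%. The ranges of the groups overlapped. The mean share was 65.7% ± 2.83 (SD, n = 3) in whole cells. In EV it was 67.3% ± 1.57 (SD, n = 3), and an exact permutation test of the difference, two-sided, gave p = 0.5. Over all 6 libraries, 1416 counts stood under miR-199a-3p and 710 under miR-199b-3p, a share of 66.6% with a 95% Clopper-Pearson interval of 64.6% to 68.6%. The tables list 2 loci for miR-199a-3p and 1 for miR-199b-3p, so that miR-199a-3p has 66.7% of the loci. The interval of each library contained this share.

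RefSeq gives 1 sequence to several names in 9 sets whose names are all in the tables, and 2 of these sets had over 30 counts in all, miR-199-3p and miR-365-3p. miR-365a-3p and miR-365b-3p have 1 locus each. Their counts were 1476 and 1481, a share of 49.9% under the first name with an interval of 48.1% to 51.7%. This pair was looked at after the counts of miR-199 had been seen. In both sets the counts followed the number of listed loci within counting error, and the counts of miR-199a-3p and miR-199b-3p do not tell which hairpin was the source.

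**Figure D4:**
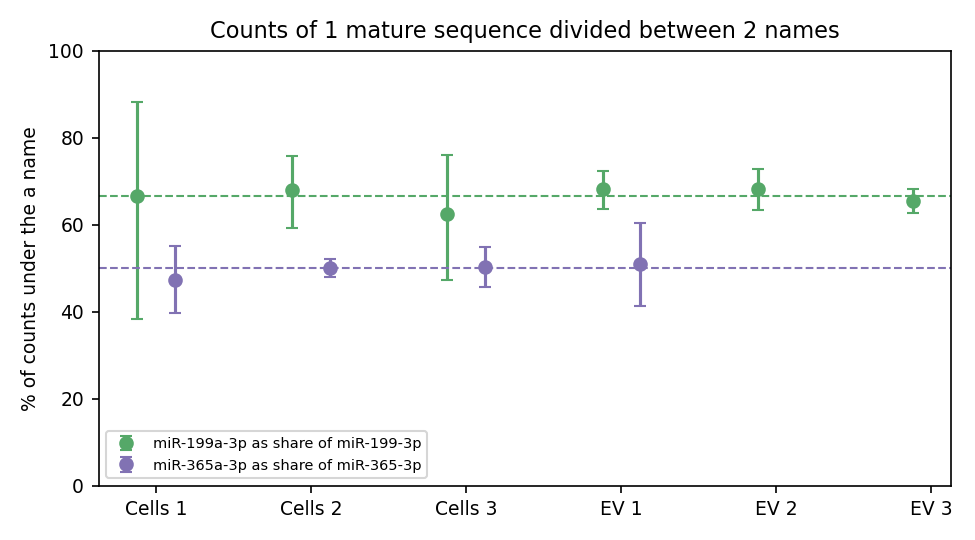
The y axis gives the percentage of counts of a shared mature sequence that stands under the a name, by library, with 95% Clopper-Pearson intervals, and dashed lines mark the share of listed loci. The miR-199 points (green) lie at 62.5% to 68.2% around their line at 66.7%, and the miR-365 points (purple, libraries with at least 10 counts) lie at 47.4% to 50.9% around 50.0%.

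The 5p arms of miR-199, which carry a different seed, were nearly absent. miR-199a-5p had 0 counts in all 6 libraries. miR-199b-5p had 38 counts or 31.0 CPM in EV replicate 1 and 0 counts in the other 5 libraries. In that library the 3p arm held 92.0% of the counts of both miR-199 arms, with an interval of 89.2% to 94.3%. In every other library it held all of them. The interval allowed a 5p share of up to 21.8%, 2.72% and 7.40% in whole cell replicates 1, 2 and 3. The limit was 0.964% in EV replicate 2 and 0.332% in EV replicate 3. EV replicate 1 thus stood apart from replicates 2 and 3 on this arm by more than counting error. Such gaps were not particular to this arm or library. In EV replicates 1, 2 and 3, miR-143-5p had 21, 0 and 89 counts and miR-205-5p had 161, 137 and 0.

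Across the tables, 108 hairpins with 2 named arms had at least as many counts on the major arm as miR-199-3p, 2126 over the 6 libraries. The minor arm held a median of 1.29% of the counts in these hairpins, and it was at 0 in all libraries for 3 of them. For miR-199 the 5p arms held 1.76%, and 62 of the 108 hairpins had a smaller share. Over all libraries the arm balance of miR-199 was therefore ordinary among these hairpins, although all of its 5p counts came from 1 library.

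miR-214, encoded beside miR-199a-2 on DNM3OS, was close to undetected. miR-214-3p, the arm usually regarded as its guide strand, had 2 counts or 1.60 CPM in whole cell replicate 3 and 0 counts in the other 5 libraries. miR-214-5p had 0 counts in all libraries. In EV miR-199-3p reached 187 to 358 CPM. By counting error alone, a count of 0 for miR-214-3p there allows at most 2.45 CPM in replicate 1, 1.47 CPM in replicate 2 and 0.957 CPM in replicate 3. In whole cell replicate 2, the deepest library, the limit was 0.752 CPM beside 33.6 CPM of miR-199-3p. miR-214-3p was thus far below miR-199-3p in these libraries, but the hairpins that gave rise to miR-199-3p cannot be told apart, since those on chromosomes 9 and 19 encode it too.

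miR-3120, whose hairpin lies on the strand opposite to miR-214, had 5 counts of its 3p arm in whole cell replicate 2 and none elsewhere, and its 5p arm had 0 counts. The counting used strand, so reads of miR-214 and miR-3120 were kept apart. Together the 6 arms had a mean of 37.1 ± 3.24 CPM (SD, n = 3) in whole cells. Their mean in EV was 310.0 ± 108 CPM (SD, n = 3), with p = 0.1 by the same exact permutation test, and nearly all of this was miR-199-3p.

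By shared seed, miR-199-3p has 1 relative in RefSeq, miR-3129-5p, which has 16 of its 22 bases in common and differs by A1G, C9G, G11A, C12G, C14G and A22U. miR-3129-5p had 2, 20 and 7 counts in whole cells and 18, 47 and 171 in EV. Its mean level was 5.22 ± 0.324 CPM (SD, n = 3) in whole cells and 30.8 ± 21.02 CPM (SD, n = 3) in EV, with every EV library above every whole cell library. It differed by 2.56 on the log2 scale (standard error 1.09, adjusted p = 0.138 by edgeR and 0.119 by DESeq2), so that neither tool called it. The other arm of its hairpin, miR-3129-3p, lay on the opposite side. Its counts were 4, 21 and 13 in whole cells, and no EV library held any (adjusted p = 0.0107 by edgeR and 0.0643 by DESeq2). By TMM-scaled CPM, a lack of overlap with EV on the lower side was found for 27.4% of the 430 tested miRNAs. The seed relatives of miR-214-3p were as low as miR-214-3p itself, with 2 counts of miR-3619-5p in whole cell replicate 1 and 0 counts of miR-761.

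The group was set beside 15 miRNAs linked to mesenchyme and fibrosis, of which 14 were tested. This list and those below were chosen with earlier results of these data known. Their calls beside the shares over all miRNAs are thus a description and no test of a list. edgeR called 4 of them higher and 1 lower in EV, where it called 4.42% and 1.4% of all tested miRNAs. DESeq2 also called 4 higher and 1 lower, where it called 9.77% and 6.98% of all tested miRNAs, but with miR-29b-3p in place of miR-10b-5p. The median log2 fold change of the 14 was 1.83, beside -0.23 for all tested miRNAs. A raised median was not particular to this list. By edgeR it was 1.30 for the epithelial list and 2.07 for the photoreceptor and pigment epithelium list described below. For the blood and serum list it was 4.45 when 3 counts were allowed per library where a group had no or few. The median of the Müller glia list, at -0.66, was not raised. miR-143-3p, an abundant miRNA of smooth muscle and fibroblasts, had a log2 fold change of 2.85 (standard error 0.35, adjusted p = 0.00331 by edgeR). miR-10b-5p, from the HOXD cluster, had 2.73 (standard error 0.34, adjusted p = 0.00331 by edgeR), but 2.495 by DESeq2, just under the limit on size. miR-29c-3p, which targets collagen mRNAs, had 4.16 (standard error 0.58, adjusted p = 0.00448 by edgeR), and miR-21-5p, a miRNA induced in fibrosis, had 3.11.

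miR-145-5p, which is made from the same primary transcript as miR-143, had 67, 532 and 135 counts in whole cells and 0 in every EV library, at least 84.1-fold lower in EV when 3 counts are allowed in each. Of the 3 most abundant members that were not called, miR-29a-3p had a log2 fold change of 1.45, miR-10a-5p of 2.02 and miR-27a-3p of 1.82 by edgeR, all under the limit on size. miR-29b-3p, a relative of miR-29c-3p, was over the limit on size at 3.16 and missed the limit on p (adjusted p = 0.0121 by edgeR), while DESeq2 called it at 2.85 (adjusted p = 0.00049 by DESeq2). The list thus held members on both sides of whole cells, and the miR-199-3p value lay among those of its 4 members called higher.

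Of a list of 10 miRNAs of blood cells and serum, 6 were tested, 3 were called higher in EV by edgeR (miR-142-3p, miR-126-3p and miR-126-5p) and 5 by DESeq2, and none was called lower. Over all tested miRNAs the shares were 4.42% higher and 1.4% lower by edgeR and 9.77% and 6.98% by DESeq2. The summed level of the 10 was 265 to 1204 CPM in whole cells and 2253 to 3213 CPM in EV. miR-142-3p, a defining miRNA of blood cells, had 0, 0 and 1 counts in whole cells and 331, 878 and 680 in EV, and miR-451a of red cells was at 0 in whole cells with 160, 69 and 424 counts in EV. miR-486-5p, of red cells as well, had a log2 fold change of 0.78 (adjusted p = 0.487 by edgeR). miR-126-3p, a miRNA of endothelium and platelets, had 37, 154 and 38 counts in whole cells and 686, 1412 and 1337 in EV, which is 54.1 and 560 CPM in the mean, with a log2 fold change of 3.45 (standard error 0.54, adjusted p = 0.00661 by edgeR). Like miR-199-3p, miR-126-3p, miR-122-5p and miR-486-5p were counted in all 3 whole cell libraries, which miR-142-3p, miR-126-5p and miR-451a were not. The part of blood or serum miRNA in the level of miR-199-3p in EV was not tested.

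An epithelial list of 7 miRNAs was less uniform. Of 5 tested, edgeR called none at 0.01. At 0.05 it called 3, with miR-141-3p and miR-203a higher and miR-200b-3p lower, where it called 11.9% of all tested miRNAs as higher and 9.77% as lower. DESeq2 called miR-141-3p and miR-203a as higher at 0.01, where it called 9.77% of all. miR-203a, a keratinocyte miRNA, had a log2 fold change of 4.37 (standard error 0.87, adjusted p = 0.0112 by edgeR). miR-200b-3p had 8, 32 and 13 counts in whole cells and 0 in every EV library (adjusted p = 0.0109 by edgeR). A lack of overlap on this side was found for 27.4% of all tested miRNAs. Of 5 photoreceptor and pigment epithelium miRNAs, 3 were tested and neither tool called any, as none reached the limit on size. On the log2 scale miR-182-5p differed by 2.26 in edgeR (adjusted p = 0.00872 by edgeR and 1.54e-05 by DESeq2). miR-183-5p differed by 2.07 (adjusted p = 0.0171 by edgeR and 0.000305 by DESeq2). Both had every EV library above every whole cell library, as did 20.9% of all tested miRNAs. The groups overlapped for miR-96-5p, which differed by 0.09 (adjusted p = 0.985 by edgeR). Of the 9 Müller glia miRNAs neither tool called any, and their median log2 fold change was -0.66, beside -0.23 for all tested miRNAs. Over all tested miRNAs 5.81% were called by edgeR and 16.7% by DESeq2, so that a count of 0 among 3 or 9 members is no result about these lists.

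**Figure D5:**
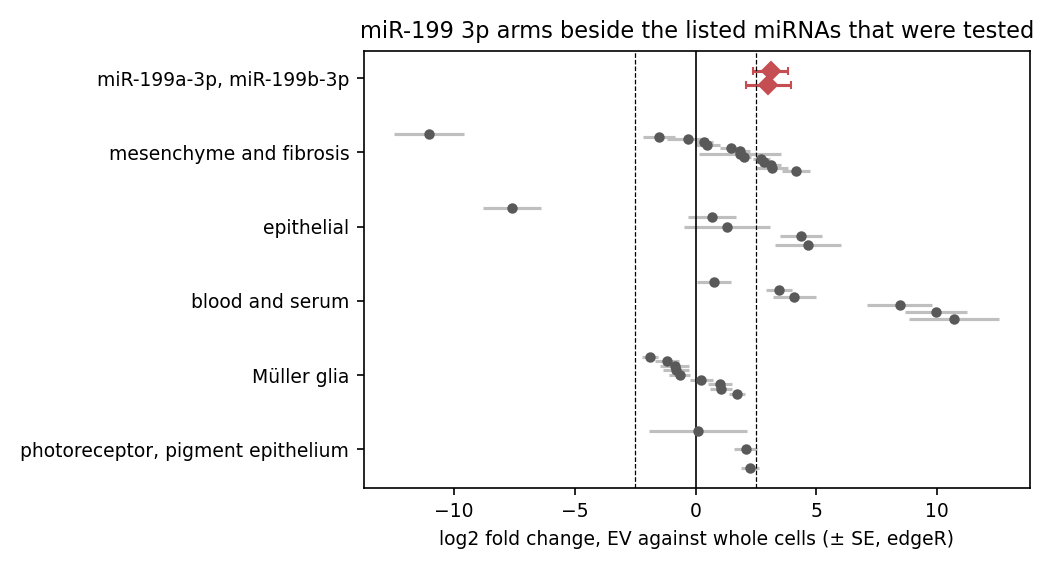
The x axis gives the log2 fold change in EV against whole cells with its standard error by edgeR, for miR-199a-3p and miR-199b-3p (red) and for each tested member of the lists (grey), with dashed lines at a size of 2.5 on either side of 0. The red points lie at 3.11 and 3.01. Fitted values of members with no or few counts in a group, such as miR-145-5p and miR-451a at the far ends, depend on the prior count of the fit and are not bounds.

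The miRNAs with the pattern most like miR-199-3p were found by root mean square distance over the 6 libraries. The distance was taken on log2(CPM + 4) values after TMM scaling, with each miRNA centred on its own mean. The nearest was miR-376c-5p at a distance of 0.16, followed by miR-655-3p at 0.21, miR-376b-5p at 0.24, miR-628-5p at 0.25 and miR-122-5p at 0.36. miR-376c-5p, miR-376b-5p and miR-655-3p belong to the imprinted cluster on chromosome band 14q32, and miR-122-5p is the abundant miRNA of liver and a member of the blood and serum list. The 3 nearest were at or near the level of a few counts in whole cells, with means of 0.867 CPM for miR-376c-5p, 2.31 CPM for miR-655-3p and 1.03 CPM for miR-376b-5p. Their fitted log2 fold changes of 4.73, 3.90 and 4.58 were larger than the 3.08 of miR-199-3p, so their nearness depends on the 4 CPM added before the log. miR-628-5p had a mean of 31.2 CPM in whole cells and 244 CPM in EV, and its log2 fold change was 2.996. miR-122-5p had 9.01 CPM in whole cells and 153 CPM in EV. For all 5, EV replicate 2 was the lowest of the EV libraries, as it was for miR-199-3p, which their selection by likeness over these libraries favours. The likeness is a description over 6 libraries that share their depth and group.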

How the data were processed

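Per the file headers, the authors counted reads on mature miRNAs with featureCounts 1.5.0-p1, strand setting 1, a miRBase 20 annotation and Bowtie 1 alignments, while the methods name Bowtie2 and another miRBase release. The deposited values are raw counts, 1 table per library. Sequence positions were taken from RefSeq GRCh38.p14 and GENCODE 29. Samples were grouped by the labelled fraction, with 3 libraries in each group.

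The arms and lists were chosen with earlier results of these data known. Named miRNAs are the 6 arms, their seed relatives, the 5 nearest patterns, and, of each list, members past both limits and at most 3 others with the highest CPM, beside markers given as values. miR-3120, miR-365, miR-3129-3p, miR-141-3p and miR-200b-3p were named after their values were seen.

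CPM was computed on library totals. miRNAs with 5 CPM in at least 3 of 6 libraries were scaled by TMM and tested in edgeR 4.0.16 (R 4.3.3). DESeq2 1.42.0 was an alternative. The scripts were tested on simulated data with a dispersion of 0.1, where either tool called 96% of miRNAs given a log2 change of 4. At the common dispersion of these data, 0.918, edgeR called 10% of them and DESeq2 65%. There DESeq2 also called 5 unchanged miRNAs and edgeR called 0. Single values were compared by two-sided exact permutation tests and shares given 95% Clopper-Pearson intervals (scipy 1.17.1). No library was a copy of another (chi-square of at least 41.9 per degree of freedom for any pair). Figures used matplotlib 3.10.9, and random steps used the seed 1. Alternatives covered tool, normalisation, filter, thresholds, thinning, block, added names, denominator, pooling, detection rule, pseudocount, likeness measure and left-out libraries.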

Additional observations from a re-analysis of the deposited data

How the results depend on the processing

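The log2 fold changes of miR-199a-3p, miR-199b-3p and their sum were above 0 under every alternative run. With DESeq2 they were 2.91, 2.81 and 2.89 and passed both limits, and with an adjusted p below 0.05 the values of 3.11, 3.01 and 3.08 passed as well. Under the other alternatives they stayed outside the limit of 0.01. At 0.05 miR-199b-3p, at 0.0467, also missed with every other edgeR normalisation, without the filter, after thinning, and in 5 of 6 fits with a library left out. With each library left out in turn they ran from 2.73 to 3.33, from 2.55 to 3.25 and from 2.68 to 3.31. Thinned to the smallest library, miR-199b-3p was at 2.49, under the limit on size. The number of called miRNAs was 25, against 72 with DESeq2, 38 with upper-quartile factors, 45 without the filter, 93 at an adjusted p below 0.05, and 0 to 23 with a library left out. Leaving out whole cell replicate 2 gave 0 edgeR calls, though 81 had p below 0.05 before adjustment, and leaving out EV replicate 2 gave 0, though 153 did. DESeq2 was not run on these subsets.

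The labels do not state a pairing by replicate number, although libraries of the same number came from neighbouring passages. Residual correlations of libraries with the same number were 0.0204, 0.0395 and -0.0172, and whole cell replicate 3 correlated best with EV replicate 2. With 3 libraries in each group these values cannot decide on a pairing, and the main fit did not use the replicate number. With the number as a block, edgeR called 18 miRNAs, and miR-199-3p over both names differed by 2.98 on the log2 scale (edgeR, adjusted p = 0.0583), with adjusted p = 0.106 for miR-199a-3p and 0.233 for miR-199b-3p, so that none passed 0.05.

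The difference in the share of miR-199-3p between EV and whole cells was 0.0263% of the total count and ran from 0.0234% to 0.0319% with a library left out, and that of the 6 arms was 0.0273% and ran from 0.0233% to 0.0334%. Without the 10 most abundant miRNAs in the total these differences were 0.0774% and 0.0803%. The difference in the share under the miR-199a name ran from -0.02 to 2.69 percentage points, and that in the 3p share of miR-199 from -3.98 to 0, the last without EV replicate 1. For miR-214 no 3p share could be compared, as 1 library had counts. Of the 4 low arms, 2 were detected, against 1 with more than 3 counts required and 1 after thinning. Of the 5 nearest patterns, 3 were kept with a pseudocount of 1 CPM and 3 by Pearson correlation. Depth limits the whole cell values most, since whole cell replicate 1 held 15 counts of miR-199-3p.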
